A study of Mus musculus with 6 samples.

Results

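miR-221 and miR-222 are mature miRNAs cut from a pair of neighbouring hairpins on the X chromosome. All rows of the deposited miRNA table whose names start with mmu-miR-221- or mmu-miR-222- were taken, which gave 4 of 1522 rows: mmu-miR-221-3p, mmu-miR-221-5p, mmu-miR-222-3p and mmu-miR-222-5p, the arms of both hairpins, written without the mouse prefix mmu- from here on. The cells were neural stem cells (NSCs), which divide to give rise to neurons and glia, taken from the hippocampus of 3-day-old male pups of the C57BL/6J strain. In the exposed group, here GDE, the pregnant dams had received dexamethasone, a synthetic glucocorticoid, injected into the peritoneum once a day at a dose of 1 mg/kg, starting at E14.5 and ending at E18.5 of embryonic development. Control dams had been given normal saline in the same way. Each group had 3 libraries, from independent litters by the design text, and the library titles call GDE "IUGR" and Control "Normal". The labels name no treatment of the offspring and no altered allele, and how stem cells were separated from other hippocampal cells beyond tissue dissociation is not given in the sources used here.

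A miRNA hairpin can yield a mature strand from either side. The strand that is loaded into an Argonaute protein guides it to messenger RNAs that pair with bases 2 to 8 of the miRNA, the seed, and lowers their output. The 3p strands of miR-221 and miR-222 are known for repressing p27 (Cdkn1b), an inhibitor of cyclin-dependent kinases that holds cells out of the division cycle, and the receptor tyrosine kinase Kit. They are abundant in many dividing cells and in endothelial cells, which matters for a brain preparation that can hold vessel fragments.

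The mature sequences (RefSeq, GRCm38.p6) show what the 3p strands have in common, with the seed in capitals. An entry was found for 3 of the 4 rows.
miR-221-3p: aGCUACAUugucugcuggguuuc
miR-222-3p: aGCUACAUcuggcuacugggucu
miR-221-5p: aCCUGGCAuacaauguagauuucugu
The 3p strands share the seed GCUACAU. They are identical over their first 8 bases and at 11 of 23 positions when both are lined up from the first base, so the seed is common and most of the rest differs. Of the 960 rows of the table that had a mature sequence, no others held this seed. In RefSeq it also occurs in the 17-base miR-1928 (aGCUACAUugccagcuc), which was not analysed here. The seed of miR-221-5p, CCUGGCA, was found in no other row.

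The hairpins lie on the minus strand of chromosome X, Mir221 at chrX:19146294-19146388 and Mir222 at chrX:19146893-19146971 (GRCm38.p6). They are shown to give the place of each strand, with the mature sequences of the entries above in capitals.
Mir221: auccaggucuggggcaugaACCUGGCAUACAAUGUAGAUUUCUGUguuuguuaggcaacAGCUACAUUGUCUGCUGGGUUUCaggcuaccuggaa
Mir222: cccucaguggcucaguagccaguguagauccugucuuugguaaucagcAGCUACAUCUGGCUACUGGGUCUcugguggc
A gap of 504 bases separates them, and both together span 678 bases. No other gene of GENCODE M21 overlapped this span, so the annotation places the hairpins between genes rather than in an exon, intron or UTR. The nearest other gene was the noncoding Gm14636, 10010 bases away on the same strand. The nearest protein-coding gene, Tex13c3, began 332449 bases away.

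Matches to the shared seed were looked for in mouse 3' UTRs because the cluster is known for its targets. The motif ATGTAGC, the reverse complement of the seed, was searched on the mRNA strand in the longest annotated 3' UTR of each of 20756 genes (GENCODE M21), and 9.5% of them held it. The Cdkn1b 3' UTR of 3439 bases held 1 match, at which the next base was an A, while 21.9% of the 2483 UTRs within 25% of its length held at least 1. The shorter motif TGTAGC, which pairs with bases 2 to 7 and lies inside every match of the longer one, occurred 4 times there. The Kit 3' UTR held 2 matches of ATGTAGC, and 1.42% of 3459 UTRs of similar length held as many. Matches stand below in capitals, within 28 bases of GRCm38 on the plus strand.
Cdkn1b (chr6:134924419-134924446): taaaagcattggATGTAGCattgcgcaa
Kit, first match (chr5:75654980-75655007): gatgggagatatATGTAGCaagactaga
Kit, second match (chr5:75656511-75656538): gtaaatattgaaATGTAGCaataatgtc
Among the other reported targets searched, Cdkn1c (a relative of p27), Bbc3 (the cell death gene PUMA) and Timp3 (a metalloproteinase inhibitor) held 1 match each and Foxo3, a transcription factor, held 0. These matches describe the letters only, since no mRNA or protein was measured in these samples.

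Values are RPM, a row's tags (sequenced small RNAs) scaled to a fixed library total. The number of tags behind each value followed from the smallest step in a library. Total depth was about 11751000 to 12385000 tags per library, and rows of the table accounted for 2927136 to 3343808 of them. miR-9-5p and miR-9-3p, miRNAs of neural progenitors, summed to 15328 to 17058 RPM per library. Their GDE means, 8389 and 7882 RPM, lay near those of other abundant rows. Among these were let-7c-5p at 8943, miR-99a-5p at 8719 and miR-34a-5p at 7801 RPM. RPM near this level may thus not scale with the amount of a miRNA, which was not tested. The neuronal miR-124-3p and miR-128-3p together gave 741 to 1072 RPM, so miRNAs of differentiated neurons were present too. No protein or mRNA marker of stem cells was measured. The first principal component of the tested miRNAs (37.4% of the variance) placed GDE replicates 1, 2 and 3 at -4.16, -5.49 and -8.92. Control replicates 1, 2 and 3 lay at 11.97, 5.44 and 1.15, so the groups stood on opposite sides, a split that was not tested. Control replicate 1 lay farthest from the centre on this component, and GDE replicate 3 did on the second (23.5%). The fits were therefore also run without each library.

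The 3p strands made up nearly all of the cluster's output, and their levels in GDE and Control overlapped. miR-222-3p was at 212, 151 and 174 RPM in GDE replicates 1, 2 and 3. In Control replicates 1, 2 and 3 it was at 142, 188 and 126 RPM. GDE replicate 1 was the highest and Control replicate 3 the lowest, and Control replicate 2 lay above 2 of the 3 GDE libraries. The GDE mean was 179 ± 30.8 RPM and the Control mean 152 ± 32.3 RPM (SD, n = 3 each), ranking this strand 140 of 1522 rows by mean level.

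miR-221-3p was at 153, 129 and 102 RPM in GDE replicates 1, 2 and 3. In Control it stood at 108, 144 and 109.5 RPM in the same order of replicate numbers. The groups overlapped throughout, with GDE replicate 3 the lowest of all libraries and GDE replicate 1 the highest. It averaged 128 ± 25.2 RPM over the GDE and 121 ± 20.2 RPM over the Control libraries (SD, n = 3 each), at rank 156. In bulk samples fewer cells of a type and less RNA per cell cannot be told apart, so these levels are averages over whatever cells each preparation held.

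**Figure D1:**
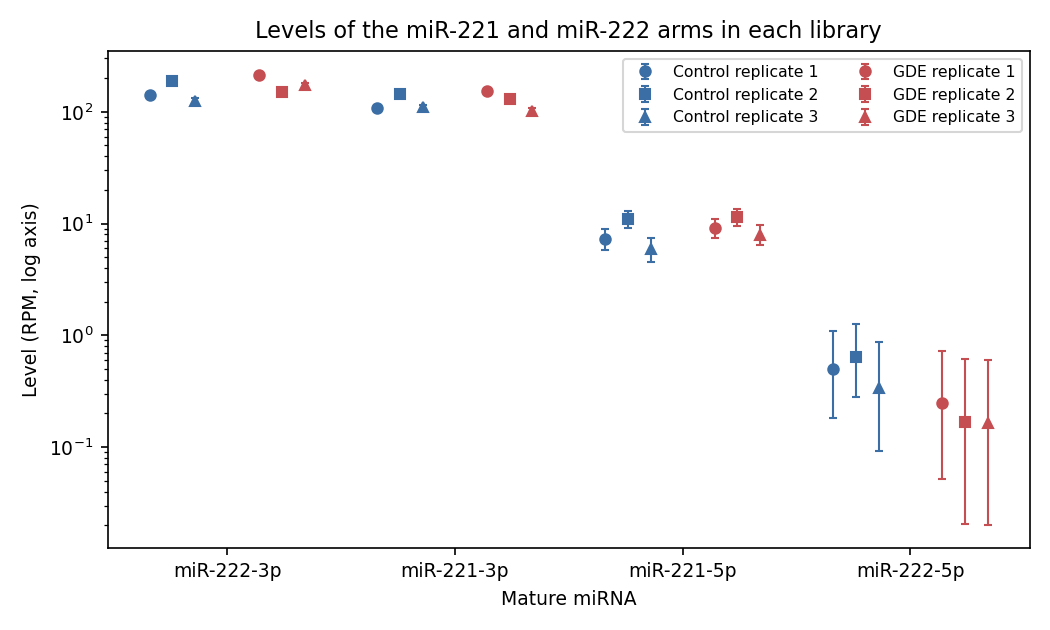
Level of each of the 4 mature strands (RPM, log axis) in the 3 Control and 3 GDE libraries; bars are exact 95% Poisson intervals for counting error only. The 3p strands lie between 102 and 212 RPM, miR-221-5p between 5.87 and 11.4 RPM and miR-222-5p below 1 RPM, and only miR-222-5p shows no overlap of the groups, on 2 to 8 tags per library.

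The strands released as the minor products were far lower. miR-221-5p was at 9.10, 11.4 and 7.92 RPM in GDE replicates 1, 2 and 3. The corresponding Control libraries held 7.23, 10.9 and 5.87 RPM. Control replicate 2 was above 2 of the GDE libraries, and the groups overlapped. The GDE mean was 9.48 ± 1.79 RPM and the Control mean 8.00 ± 2.60 RPM (SD, n = 3 each), at rank 348.

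miR-222-5p was close to the detection limit of the libraries. GDE replicates held 3, 2 and 2 tags and Control replicates 6, 8 and 4, or 0.165 to 0.250 RPM against 0.340 to 0.646 RPM. The GDE libraries all lay below the Control libraries, by 1 tag where they came closest, and every pair of libraries had overlapping 95% Poisson intervals. Over each group, 7 tags in GDE against 18 in Control gave a depth-corrected ratio of 0.392 whose exact binomial 95% interval ran from 0.138 to 0.983. That interval pools the tags of each group and leaves out the variation between replicates, so it compares these libraries and not the groups. PCR copies of 1 molecule may be counted more than once, so it may be too narrow even for counting error. Among 371 rows of similarly few tags (12 to 50 in all 6 libraries, a range set after the values were seen), 9.43% had every GDE library below every Control library. The exact permutation p (two-sided) was 0.1, below which a design of 3 against 3 cannot go. This strand did not reach 1 RPM in 3 libraries and so was not among the 649 rows tested. When all 1522 rows were fitted its log2 fold was -0.32 on the log2(RPM + 1) scale (limma, adjusted p = 0.690). The added 1 RPM exceeded every value of this strand and so shrank that fold.

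Gestational dexamethasone exposure was then compared with saline over the whole table, which is the comparison the study design sets up. None of the 3 tested strands passed the threshold of an adjusted p under 0.05 in limma, and 0.308% of all 649 tested rows did. Their unadjusted p were 0.737 for miR-221-3p, 0.323 for miR-222-3p and 0.378 for miR-221-5p. For miR-221-3p the log2 fold of GDE over Control, on the log2(RPM + 1) scale, was 0.08 (SE 0.23, 95% interval -0.45 to 0.61; limma, adjusted p = 0.963; exact two-sided permutation p = 0.7). For miR-222-3p it was 0.24 (SE 0.23, 95% interval -0.29 to 0.77; limma, adjusted p = 0.773; exact permutation p = 0.4). For miR-221-5p it was 0.24 (SE 0.26, 95% interval -0.36 to 0.85; limma, adjusted p = 0.798; exact permutation p = 0.4). The intervals say how far the data limit the difference: as folds they run from 0.731 to 1.53 for miR-221-3p and from 0.819 to 1.71 for miR-222-3p. Equal levels are not shown by them. The median log2 fold of all 649 tested rows was -0.07, with 252 positive and 397 negative, so all 3 strands lay slightly above the middle of the table.

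With the values taken as RPM, the sign of the miR-221-3p difference rested on 1 library. Without GDE replicate 1 its log2 fold was -0.06 (limma, adjusted p = 0.988), and without Control replicate 1, the library farthest out on the first component, it was 0.01. The fold of miR-222-3p was 0.11 without GDE replicate 1 and 0.21 without Control replicate 1, and that of miR-221-5p 0.26 and 0.20.

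Counting error was smaller than the spread between replicates. miR-221-3p was counted 1243 to 1831 times and miR-222-3p 1476 to 2542 times per library, for which counting alone gives a coefficient of variation of at most 2.84% and 2.60%. Between replicates the coefficient of variation was 19.7% in GDE and 16.7% in Control for miR-221-3p, and 17.2% and 21.2% for miR-222-3p. For miR-221-5p, with 69 to 135 tags, counting gives up to 12.04% and the replicates varied by 18.8% in GDE and 32.5% in Control. The replicate spread thus exceeded counting error for each of these 3 strands.

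Levels of different miRNAs were set side by side as RPM. The order miR-222-3p, miR-221-3p, miR-221-5p, miR-222-5p, from high to low, held in 6 of 6 libraries. miR-222-3p exceeded miR-221-3p by a ratio of 1.15 to 1.69, with a mean ratio of 1.42 ± 0.262 in GDE and 1.26 ± 0.0938 in Control (SD, n = 3 each). The ranges of these neighbours over the 6 libraries overlapped, while each of the other steps in the order was larger than the spread. Adapter ligation favours some sequences over others, so a ratio between miRNAs need not be the ratio in the cell, whereas its difference between groups is less exposed to this. The log2 ratio was higher in GDE by 0.16 (exact two-sided permutation p = 0.4), with the Control libraries at 0.39, 0.38 and 0.20 and the GDE libraries at 0.47, 0.23 and 0.75. GDE replicate 3 had the highest ratio of all, and without it the difference was 0.03.

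Because both 3p strands present 1 seed, their sum is the amount of that seed in the rows that had a mature sequence. It was 365, 280 and 276 RPM in GDE replicates 1, 2 and 3. In Control it was 251, 332 and 235 RPM. As a share of all RPM in the table this was 0.121% ± 0.0178 in GDE and 0.104% ± 0.0234 in Control (SD, n = 3 each; exact two-sided permutation p = 0.3). GDE replicate 1 and Control replicate 2 had the highest sums, so the high libraries came from both groups.

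Arm choice was examined next, since the ratio of strands from 1 hairpin does not move with the amount of precursor. The 5p strand was 5.62%, 8.13% and 7.17% of all miR-221 in GDE replicates 1, 2 and 3. In the Control replicates it was 6.25%, 7.04% and 5.09%. The groups overlapped, with GDE replicate 2 highest and Control replicate 3 lowest. With 1 RPM added to each strand, the log2 5p:3p ratio was -3.62 in GDE and -3.78 in Control. The difference was 0.16 (SE 0.23, 95% interval -0.36 to 0.69, adjusted p = 0.908 in limma). The added RPM ties this measure partly to the level of the strands. With 0.1 RPM added the difference was 0.19, and with 10 RPM added it was 0.04. None of 155 precursors with both arms tested passed in limma (0% called), and 9 had an unadjusted p under 0.05.

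Ordered from 5p to 3p dominance by their mean log2 ratio, miR-221 was number 133 of these 155 precursors. The 5p arm dominated in 98 of them and the 3p arm in 57, so miR-221 stood on the less common side. miR-222 was more one-sided still, with the 3p strand exceeding the 5p strand by a ratio of 285 to 1052 in the 6 libraries. Its 5p share was 0.0950% to 0.118% in GDE and 0.270% to 0.349% in Control, a difference that rests on the few 5p tags given above.

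**Figure D2:**
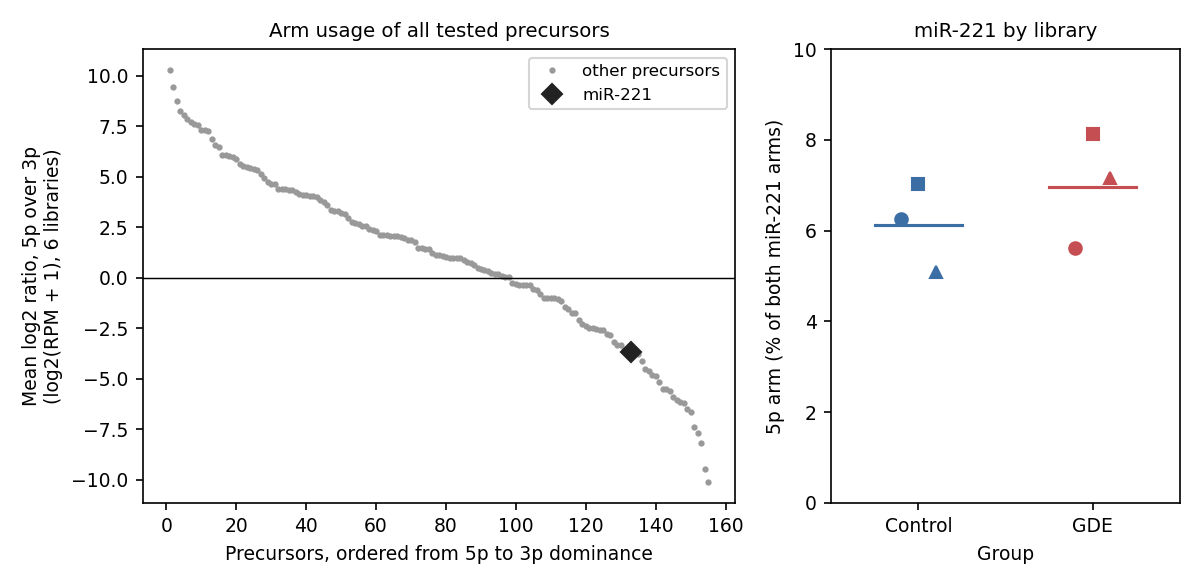
Left, mean log2 5p:3p ratio (1 RPM added to each strand) of the 155 tested precursors (grey points), ordered from 5p to 3p dominance. The black diamond is miR-221, at place 133. Right, the 5p share of both miR-221 arms in each library (percent; circles, squares and triangles are replicates 1, 2 and 3, lines are group means), between 5.09% and 8.13% with overlapping groups.

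The cluster was next set beside other miRNAs reported to repress the same cell-cycle inhibitor. Of the 9 members of the p27 list, the 3p strands included, 0 passed the threshold in limma, where 0.308% of all rows did, and 0 had an unadjusted p under 0.05 against 8.63% of all rows. Log2 folds were positive for 4 and negative for 5, with a median of -0.06 beside -0.07 for all tested rows. The most abundant, miR-181a-5p, averaged 7232 ± 343 RPM over GDE and 7545 ± 196 RPM over Control libraries (SD, n = 3 each). It was followed by miR-24-3p at 1952 ± 633 against 2618 ± 635 RPM. By RPM the cluster's 3p strands were thus a small part of the list. The list members summed to 8620 to 10673 RPM in the GDE libraries and 9999 to 11173 RPM in the Control libraries. Most of that sum was miR-181a-5p, at a level where RPM may not scale with amount.

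The remaining members of the p27 list were lower. miR-148a-3p averaged 39.6 ± 7.80 RPM in the GDE and 48.4 ± 2.46 RPM in the Control libraries (log2 fold -0.30; limma, adjusted p = 0.703), miR-148b-3p at 60.0 ± 6.99 against 66.2 ± 4.02 RPM and miR-152-3p at 19.4 ± 3.69 against 24.7 ± 11.9 RPM. All GDE libraries lay below all Control libraries for miR-148a-3p, as they did for 10.0% of all tested rows. The Hox cluster strands miR-196a-5p and miR-196b-5p were rare, the first with a GDE mean of 1.47 ± 0.236 RPM and a Control mean of 0.852 ± 0.311 RPM, the second with 8.09 ± 8.92 and 2.18 ± 0.598 RPM. The high GDE mean of miR-196b-5p came from GDE replicate 3 at 18.4 RPM, while GDE replicates 1 and 2 were at 3.00 and 2.88 RPM. For both miR-196 strands the GDE libraries lay above the Control libraries, which 4.62% of all tested rows did, and neither passed (limma, adjusted p = 0.567 and 0.570).

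A second list held miRNAs of the miR-17 seed family, reported to repress p21 (Cdkn1a), the other well-studied inhibitor of the same kind. Of its 6 members 5 were tested, and 0 passed in limma, where 0.308% of all rows did. An unadjusted p under 0.05 was found for 0, against 8.63% of all rows. Log2 folds were negative for 5 of 5 with a median of -0.18, beside 397 of all 649 tested rows and a median of -0.07. The most abundant, miR-93-5p, averaged 3053 ± 249 RPM over GDE and 3480 ± 518 RPM over Control libraries (log2 fold -0.18; limma, adjusted p = 0.643). miR-20b-5p had the most negative fold, -0.71, at 3.86 ± 1.65 against 7.06 ± 3.26 RPM (limma, adjusted p = 0.567). miR-106a-5p reached at most 0.416 RPM and was not tested. On the recovered tags edgeR, DESeq2 and limma-voom also called 0 members of either list. An unadjusted p under 0.05 was found for 1 of 9 p27 list members in edgeR, 1 in DESeq2 and 0 in limma-voom. For the p21 list it was found for 0 in each tool. The miRNAs of these lists are shown here side by side, and whether their folds differ from those of the cluster was not tested.

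**Figure D3:**
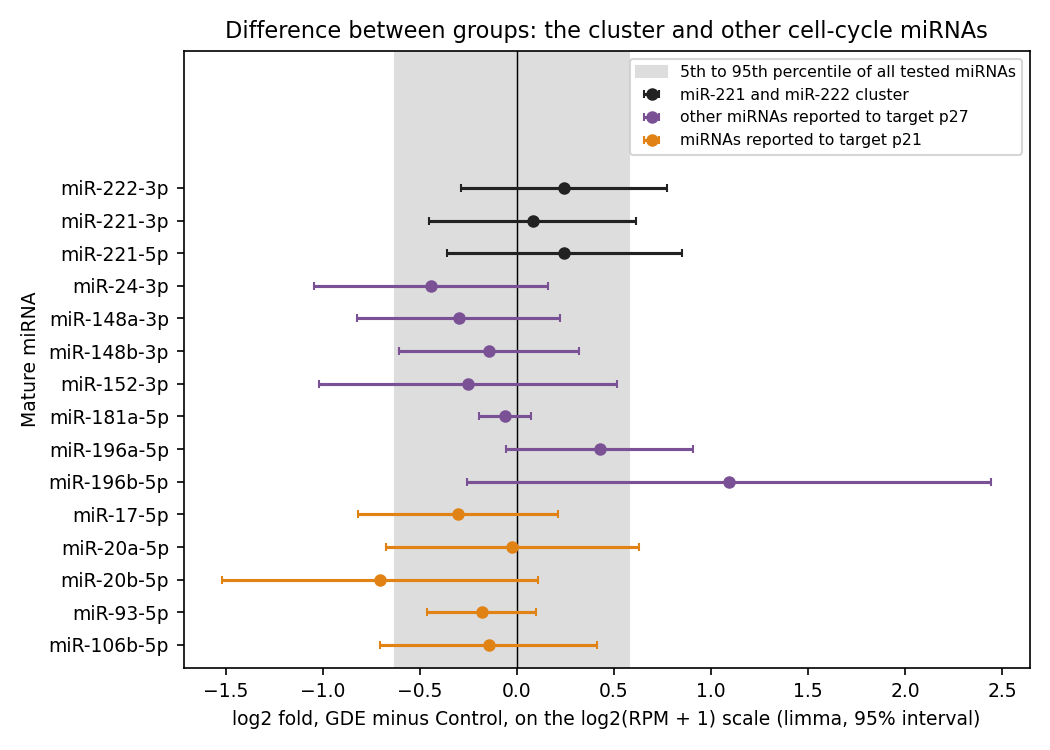
Log2 fold of GDE over Control on the log2(RPM + 1) scale with its 95% interval (limma) for the 3 tested strands of the cluster (black), the other p27 list members (purple) and the p21 list members (orange); the grey band holds the 5th to 95th percentile of all 649 tested rows, -0.63 to 0.58. Every interval crosses 0.

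Cells of blood vessels are known to express miR-221 and miR-222, so the marker miRNAs of vessels were read in the same libraries. miR-126a-3p, the main endothelial miRNA, was at 247, 306 and 448 RPM in GDE replicates 1, 2 and 3. In Control it stood at 330, 265 and 220.6 RPM. The highest library was GDE replicate 3 and the lowest Control replicate 3, and the groups overlapped. miR-126a-5p averaged 18.4 ± 2.06 RPM over GDE and 13.8 ± 2.24 RPM over Control libraries, with all GDE libraries above all Control libraries, as for 4.62% of all tested rows (limma, adjusted p = 0.570).

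The mural miR-143-3p averaged 73.7 ± 13.7 RPM over GDE and 70.6 ± 9.91 RPM over Control libraries. For the mural miR-145a-5p the means were 4.84 ± 0.606 and 2.77 ± 0.418 RPM (adjusted p = 0.551 in limma). All its GDE libraries lay above all Control libraries, as for 4.62% of all tested rows. Summed, the endothelial pair ran from 265 to 465 RPM in GDE and from 232 to 345 RPM in Control, and the mural pair from 66.6 to 94.2 and from 63.8 to 84.2 RPM. No marker of either pair was at 0, and 4 of 4 had a positive log2 fold, as had the 3 tested strands of the cluster and 252 of all 649 tested rows. The part of vessel cells in the levels of the cluster was not tested.

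Markers of blood and immune cells were higher on average in GDE as well, with 4 of 4 positive folds in the microglia and leukocyte list. Its summed level was 315 to 477 RPM in GDE and 107 to 256 RPM in Control, and no member passed in limma (lowest adjusted p = 0.510). An unadjusted p under 0.05 was found for 3 of the 4, miR-150-5p, miR-223-3p and miR-142a-3p, against 8.63% of all rows, and for these 3 the GDE libraries lay above all Control libraries, against 4.62% of all rows. No member was at 0 in all libraries. The erythroid list summed to 73.8 to 93.5 RPM in GDE and 35.0 to 69.0 RPM in Control. Most of this was miR-451a, with means of 65.3 and 34.5 RPM and all GDE libraries higher, as for 4.62% of all rows (limma, adjusted p = 0.551). In contrast miR-486a-5p overlapped between the groups, with means of 15.6 and 15.0 RPM, and miR-144-3p reached at most 1.44 RPM and was not tested. The oligodendrocyte lineage pair summed to 208 to 263 RPM in GDE and 158 to 233 RPM in Control. The part of all these cell types in the values of the cluster was not tested.

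The way the strands varied over the 6 libraries was compared with that of miRNAs outside the cluster. For each strand, log2(RPM + 1) was centred on its own mean, and the root mean square difference from the centred profile of each of 318 miRBase-named miRNAs of at least 10 RPM, the cluster left out, was taken. The nearest to miR-221-3p was miR-1198-5p, with a difference of 0.08 on the log2 scale against a median of 0.34 over all 318. A flat profile would differ from miR-221-3p by 0.22, from miR-222-3p by 0.25 and from miR-221-5p by 0.30. The level of miR-1198-5p was 478, 463 and 363 RPM in GDE replicates 1, 2 and 3, and 344, 481 and 354 RPM in the Control replicates. Like miR-221-3p it was high in GDE replicates 1 and 2 and in Control replicate 2, and low in the other three.

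The next nearest to miR-221-3p were miR-23a-3p (0.12) and miR-328-3p (0.13). Of the miRNAs outside the cluster miR-1198-5p also came first for miR-222-3p (0.185), before miR-23b-3p (0.19) and miR-122-5p (0.19), and for miR-221-5p (0.16), before miR-126a-5p (0.19) and miR-23b-3p (0.19). Within the cluster, the profiles of the 3p strands differed by 0.184, which placed miR-221-3p slightly nearer to miR-222-3p than miR-1198-5p was. From the side of miR-221-3p the same distance ranked 17 among the distances to the 318 miRNAs. The profiles of the miR-221 arms differed by 0.22, about as much as miR-221-3p differed from a flat profile. The libraries in which the 3p strands parted most were GDE replicate 3, where miR-221-3p lay at -0.26 and miR-222-3p at 0.09 from its own mean, and Control replicate 3, at -0.17 and -0.37. With 6 libraries that share a depth scale these distances describe the profiles and carry no test.

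**Figure D4:**
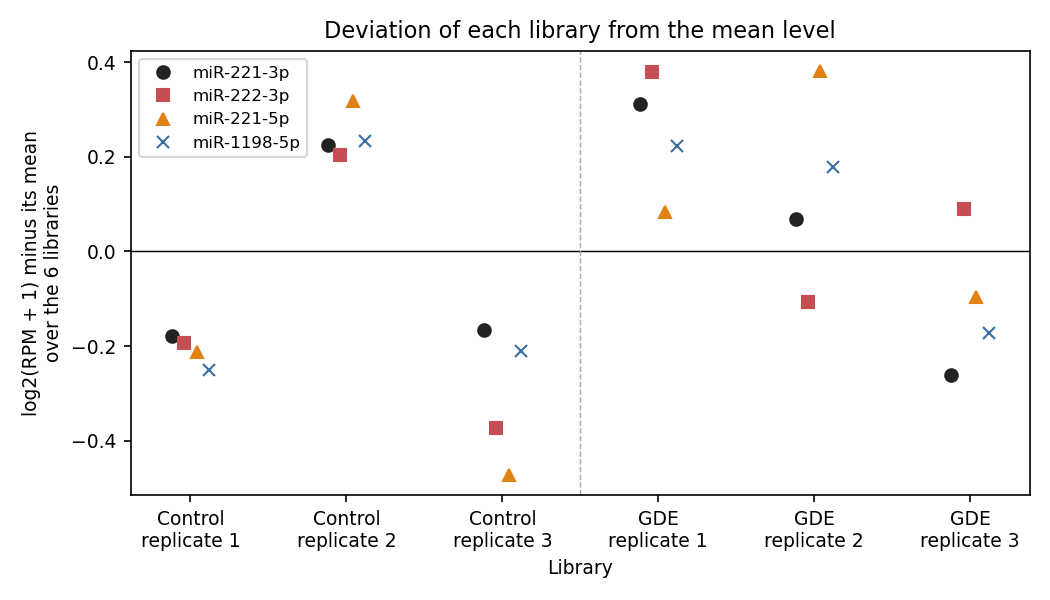
Deviation of log2(RPM + 1) from its mean over the 6 libraries, for the 3 tested strands and miR-1198-5p, the miRNA outside the cluster with the smallest difference from each of them. All 4 are below their mean in Control replicates 1 and 3 and above it in Control replicate 2 and GDE replicate 1, and in GDE replicates 2 and 3 they lie on both sides.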

How the data were processed

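Small RNA libraries from hippocampal NSCs were compared between 3 GDE and 3 Control libraries, grouped by their titles. Per the labels' protocols, TRIzol extraction was followed by an MGIEasy small RNA library preparation, and the submitters' processing notes name Bowtie2 and mm10. Not given in the sources used here are trimming, molecular identifiers and the treatment of reads matching several miRNAs. Per the file headers the deposited columns hold expression; they were read as RPM because the low values of each library are whole multiples of 1 step (0.0807 to 0.0851 RPM), and 100% of nonzero values came out whole within 0.1 tags. Summed over the table, these deposited RPM came to 241370 to 277888 a library. A count of 0 allows up to 3 tags, about 0.25 RPM.

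The main test was limma 3.58.1 (R 4.3.3) with a trend on log2(RPM + 1), over rows of at least 1 RPM in 3 libraries (649, of them 562 with a miRBase name), two-sided, with Benjamini-Hochberg adjustment over all of them. edgeR 4.0.16 on the whole tags called 2 miRNAs; DESeq2 1.42.0 and limma-voom were run too. Arms were paired by name. Single values used exact permutation tests (scipy 1.17.1). The fits were tested on simulated data. The changes added there were larger than the folds of the tested strands, so how often folds of their size are found was not examined. Members, lists and the naming rule (all cluster rows, list members, vessel markers and the 3 nearest profiles) were chosen with earlier results of these data known. Sequences are from RefSeq (GRCm38.p6) and GENCODE M21. Alternatives covered pseudocount, filter, scaling, tool, replicate block and leaving out each library.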

Additional observations from a re-analysis of the deposited data

How the results depend on the processing

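No tested strand of the cluster passed the threshold under any of the alternatives that gave it a value. The adjusted p ran from 0.783 to 0.997 for miR-221-3p, from 0.646 to 0.986 for miR-222-3p and from 0.686 to 0.971 for miR-221-5p (limma, edgeR, DESeq2 or limma-voom). With all libraries kept, other scalings and tools gave larger log2 folds than the main fit. They were 0.14 to 0.19 for miR-221-3p (main 0.08), 0.30 to 0.35 for miR-222-3p (main 0.24) and 0.32 to 0.38 for miR-221-5p (main 0.24). The log2 fold of miR-221-3p turned to -0.056 without GDE replicate 1. Leaving out each library in turn gave -0.06 to 0.23 for it, 0.11 to 0.40 for miR-222-3p and 0.07 to 0.47 for miR-221-5p, which had no value with a mean of at least 10 RPM. For the arm ratio of miR-221 the range was 0.05 to 0.32, and for the log2 ratio of miR-222-3p over miR-221-3p it was 0.03 to 0.29. The number of miRNAs past the threshold was 2 in the fit of all libraries, 7 in DESeq2, 1 in limma-voom, 1 with a mean of at least 10 RPM and 1 to 2 when a library was left out. With no filter 1 precursor passed for arm usage, and it was not miR-221, whose adjusted p was 0.904 in limma. With a replicate block 2 miRNAs passed and the adjusted p was 0.989 for miR-221-3p, 0.854 for miR-222-3p and 0.808 for miR-221-5p in limma. Libraries with the same number did not deviate together (correlations of -0.03, -0.12 and -0.03 across miRNAs), so the numbers were not taken to pair them. The cause of these shifts was not tested. Depth limits miR-222-5p, at 2 to 8 tags per library.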
